A study of Mus musculus and Homo sapiens with 11 samples.

Results

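The 8 genes Mllt3, Focad, Ptplad2, Klhl9, Mir31, Mtap, Cdkn2a and Cdkn2b are neighbours on mouse chromosome 4, and they were nearly silent in a parental mammary tumour line and expressed in its brain metastatic derivative. They were chosen by symbol from the 24062 genes of the deposited table because of that difference, so their values in the comparison of the derivative with the parental line are given as a description and carry no test. The study sequenced polyadenylated RNA of MMTV-ErbB2 mouse breast cancer cells, 3 libraries of the parental line and 3 of the line labelled as its brain metastatic derivative (BrM 2a). MMTV-ErbB2 stands for tumour cells from mice in which the mouse mammary tumour virus promoter drives the receptor tyrosine kinase ErbB2 in mammary epithelium, and both groups share that origin. The labels describe cultured cells in DMEM or RPMI medium and libraries made with TruSeq RNA v2 or NEBNext Ultra kits on a HiSeq sequencer, without saying which library had which medium or kit, so these cannot be told apart from the groups. Age, treatment and time are not given for these 6 libraries, and neither is whether the BrM line is 1 clone; the series' design text speaks of brains of mice injected with human breast cancer lines, which were not analysed here. Whether the 3 libraries per group stem from separate cultures is not stated, and the p-values printed for other genes then measure only library spread, which may be technical.

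Cdkn2a and Cdkn2b encode the tumour suppressors p16Ink4a, p19Arf and p15Ink4b. The Ink4 proteins bind Cdk4 and Cdk6 and hold the retinoblastoma protein in the form that blocks entry into S phase, and Arf binds Mdm2 and so stabilises p53. Mtap, their neighbour, encodes methylthioadenosine phosphorylase, which returns the by-product of polyamine synthesis to methionine. The locus is often deleted in human tumours as 1 unit together with Mtap, and mouse cells in culture often lose it or silence it. Between Ptplad2 and Mir31, on both sides of Klhl9, lies the cluster of type I interferon genes, and Mir31 encodes the microRNA miR-31, which has been studied as a regulator of breast cancer metastasis.

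The mature products of Mir31 are shown because the name of the gene hides what it makes, and because their seeds (bases 2 to 8, in capitals) define the target sites examined further on. They are printed 5′ to 3′ from RefSeq (GRCm38.p6), where the hairpin lies at chr4:88910557-88910662 on the minus strand, and capitals in the hairpin mark the mature arms.
mmu-miR-31-5p: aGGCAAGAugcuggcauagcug
mmu-miR-31-3p: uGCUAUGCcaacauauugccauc
Mir31 hairpin: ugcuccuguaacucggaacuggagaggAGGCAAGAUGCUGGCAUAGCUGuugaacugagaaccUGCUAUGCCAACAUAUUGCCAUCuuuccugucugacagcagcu
Of the 1738 mature mouse microRNAs in the table, 0 others had either seed. The deposited counts come from polyadenylated RNA and give reads on the 106-base hairpin interval, not the amount of either mature miR-31 arm.

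The promoters of Cdkn2b, Cdkn2a and Mtap, 3 genes side by side, are shown because of their BrM levels. Per length of annotated exon, these were the highest of the 7 members with a RefSeq promoter. Each window runs from 250 bases before to 50 after a transcription start, on the strand of the gene (GRCm38.p6, RefSeq). Capitals mark GGGCGG (the GC box), CCAAT and TGACGTCA (the cAMP response element), on either strand. Cdkn2a has 2 starts: the distal one begins the Arf transcript and the proximal one the Ink4a transcript. The windows are chr4:89310983-89311282 for Cdkn2b (minus strand), chr4:89294570-89294869 and chr4:89282143-89282442 for Cdkn2a (minus strand), and chr4:89137120-89137419 for Mtap (plus strand).
Cdkn2b: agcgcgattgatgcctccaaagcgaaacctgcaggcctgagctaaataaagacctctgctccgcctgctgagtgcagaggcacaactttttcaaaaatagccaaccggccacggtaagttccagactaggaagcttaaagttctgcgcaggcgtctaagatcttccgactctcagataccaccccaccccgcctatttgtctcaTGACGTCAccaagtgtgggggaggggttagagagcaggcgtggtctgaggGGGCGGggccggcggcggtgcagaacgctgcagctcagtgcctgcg
Cdkn2a, Arf start: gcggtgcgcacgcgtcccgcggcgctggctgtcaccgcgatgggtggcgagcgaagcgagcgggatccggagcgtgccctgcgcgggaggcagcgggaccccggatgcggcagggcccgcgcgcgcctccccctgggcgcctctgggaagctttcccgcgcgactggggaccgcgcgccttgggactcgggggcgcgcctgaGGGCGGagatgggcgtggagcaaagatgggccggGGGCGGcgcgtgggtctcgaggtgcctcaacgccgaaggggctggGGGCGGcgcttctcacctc
Cdkn2a, Ink4a start: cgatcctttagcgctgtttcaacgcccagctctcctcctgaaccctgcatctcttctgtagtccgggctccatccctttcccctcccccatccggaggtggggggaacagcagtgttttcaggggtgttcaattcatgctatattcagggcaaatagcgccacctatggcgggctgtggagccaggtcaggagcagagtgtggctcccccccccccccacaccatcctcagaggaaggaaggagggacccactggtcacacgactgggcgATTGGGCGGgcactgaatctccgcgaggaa
Mtap: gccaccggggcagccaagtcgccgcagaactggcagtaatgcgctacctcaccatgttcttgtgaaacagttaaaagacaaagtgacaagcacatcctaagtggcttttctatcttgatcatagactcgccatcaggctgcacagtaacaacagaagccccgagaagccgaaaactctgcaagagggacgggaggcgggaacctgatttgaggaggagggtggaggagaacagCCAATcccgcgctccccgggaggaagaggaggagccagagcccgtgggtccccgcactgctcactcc
The table held 9 promoters for 7 members, Ptplad2 under its newer symbol Hacd4, with 2 starts each for Mllt3 and Cdkn2a. GGGCGG was found in 7 of the 9, against 35.7% of all 32851 promoters of the same length, and CCAAT in 5 of 9, against 37.4%. TGACGTCA was in the Cdkn2b window only, against 1.79% of all promoters. TATAAA was in 0 of 9 (13.6% of all promoters), CACGTG in 0 of 9 (7.15%) and TGACTCA in 0 of 9 (5.20%). The Arf window held 45 CG dinucleotides, more than or as many as 98.4% of all promoters, whose median was 7. The Ink4a window held 12 and the Cdkn2b window 18. These matches describe letters in the windows and not bound sites.

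The libraries held 29877087 to 46683735 reads assigned to genes. Values are the deposited read counts scaled between libraries, on which 1 read was worth 0.824 to 1.22. BrM replicate 1 stood apart from the other BrM libraries: 26.1% of the 13821 genes whose mean value reached 10 (the genes tested) differed by at least 2-fold between it and replicate 2, against 1.59% between replicates 2 and 3 and 7.06% to 12.2% between parental libraries. Counts of the gene lists are therefore also given without it. Epithelial markers were abundant in both lines, although Krt7 was at or near 0. Krt8 was at 28249.6 ± 7300.4 (SD, n = 3) in parental and 69809 ± 6322 in BrM libraries, and Epcam at 20991 ± 1079.7 and 18478 ± 3467. Of 7 tested epithelial markers, 4 were higher in BrM and 1, Cdh1, was lower (24720 against 15921). Summed fibroblast markers were 4639 to 16101 in parental libraries, led there by Postn and Pdgfrb, and 220 to 1108 in BrM libraries. Lum was at 0 everywhere and 4 of 6 tested markers were lower in BrM. Of all tested genes, 15.8% were called lower and 12.2% higher in BrM. Summed leukocyte markers were 226 to 949 in parental and 450 to 3005 in BrM libraries, where 1 of 3 tested markers was higher (Csf1r, 7.52 against 268). Lyz2 went the other way without passing (adjusted p = 0.0935, limma). It was at 353, 6.59 and 6.61 in parental and 2.44, 0 and 0 in BrM libraries. The highest sum was that of BrM replicate 1, with Cd68 at 2670, while BrM replicates 2 and 3 were at 472 and 450. Summed brain markers were 979 to 1295 in parental and 2167 to 2267 in BrM libraries, where 2 of 3 were higher (Mbp and Gfap). The defining leukocyte genes Ptprc and Cd3e, the brain genes Aqp4, Mog and Rbfox3 and the summed endothelial markers (3.73 to 25.6) were at or near 0. The part of these marker differences in the results on the segment was not tested. In such bulk libraries, fewer cells of a type and less RNA per cell cannot be told apart.

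Cdkn2b, which encodes the Cdk4 and Cdk6 inhibitor p15Ink4b, lies at chr4:89306299-89311039 on the minus strand (GRCm38, GENCODE M21). Its scaled counts were 11.2, 6.59 and 0.944 in parental replicates 1 to 3 and 3417, 2361 and 2139 in BrM replicates 1 to 3. All BrM libraries were far above all parental ones, and BrM replicate 1 was the highest of the 6. The means were 6.24 ± 5.13 (SD, n = 3) in parental and 2639 ± 683 (SD, n = 3) in BrM libraries. The ratio of pooled reads, corrected for library scale, was 419 (exact 95% interval 271 to 686, which here and below covers counting error only). On the log2(value + 1) scale the difference was 8.84, and it was 8.07 without parental replicate 3, the library with 1 read of Cdkn2b.

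Cdkn2a, at chr4:89274471-89294653 on the minus strand, encodes p16Ink4a and p19Arf from separate first exons, and its count does not separate the transcripts of the 2 starts. Its values were 5.09, 3.29 and 0.944 in parental replicates 1 to 3 and 1316, 1091 and 1149 in BrM replicates 1 to 3. The parental libraries held 5, 4 and 1 reads of the gene, and the groups did not overlap. The means were 3.11 ± 2.08 and 1185 ± 117 (SD, n = 3 each), a ratio of pooled reads of 383 (95% interval 208 to 799). Cdkn2a and Cdkn2b were thus the members with the highest ratios, and both had their lowest value in parental replicate 3.

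Mtap, the methionine salvage enzyme, lies at chr4:89137122-89181081 on the plus strand, next to Cdkn2a. Its scaled counts were 79.4, 73.3 and 103 in the parental libraries, the highest of any member there, and 6534, 10043 and 9610.2 in the BrM libraries. BrM replicate 1 was the lowest BrM library for Mtap, in contrast to Cdkn2b, and still lay far above every parental library. The means were 85.2 ± 15.6 and 8729 ± 1913 (SD, n = 3 each), with a ratio of pooled reads of 105 (95% interval 93.3 to 119). Mtap made up 60.1% to 71.7% of the reads of the 8 members in parental libraries and 40.8% to 51.7% in BrM libraries. A processed pseudogene, Gm12607, lies on the other strand within Mtap, and whether the counting used strand is not given in the sources used here.

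Mllt3, also known as Af9, is a reader of acylated histones and a subunit of the super elongation and Dot1l complexes that promote transcription elongation. It closes the segment on the centromeric side at chr4:87769925-88033364 on the minus strand. Its values were 8.14, 7.41 and 11.3 in parental libraries and 1395, 2374 and 2441 in BrM libraries. The groups did not overlap, and BrM replicate 1 was the lowest of the BrM libraries. The means were 8.96 ± 2.08 and 2070.1 ± 585 (SD, n = 3 each), with a ratio of pooled reads of 239 (95% interval 166 to 357).

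Focad, at chr4:88094629-88411011 on the plus strand, encodes focadhesin, which stabilises the SKI complex that feeds RNA into the cytoplasmic exosome. Its values were 7.12, 4.94 and 5.67 in parental libraries and 955, 1093 and 1131 in BrM libraries, with a ratio of pooled reads of 183 (95% interval 117 to 304). Its BrM libraries agreed closely, at 1059 ± 92.8 (SD, n = 3) against 5.91 ± 1.11 in parental libraries. Ptplad2, now named Hacd4, encodes a 3-hydroxyacyl-CoA dehydratase of very long chain fatty acid synthesis and lies at chr4:88396144-88438928 on the minus strand. It overlaps Focad by 14868 bases on the opposite strand, so reads in that stretch may not be told apart between the 2 genes. Its values were 0, 4.12 and 0 in parental libraries and 458, 372 and 403 in BrM libraries, so that all 5 parental reads came from parental replicate 2. The ratio of pooled reads was 265 (95% interval 113 to 818), and the difference on the log2(value + 1) scale was 7.90 with all libraries and 8.68 without parental replicate 2.

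Klhl9, at chr4:88718292-88722465 on the minus strand, encodes an adaptor of the Cul3 ubiquitin ligase that acts on Aurora B in mitosis. Its values were 20.4, 21.4 and 20.8 in parental libraries and 1855, 2047 and 2085 in BrM libraries, the tightest replicates of any member in both groups. The means were 20.8 ± 0.535 and 1996 ± 123 (SD, n = 3 each), and the ratio of pooled reads was 96.1 (95% interval 75.7 to 124), the lowest of the 8. Gm26566, annotated on the plus strand, overlaps the 5′ end of Klhl9 by 661 bases.

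Mir31, whose hairpin is printed above, was the weakest member. Its interval held 0, 1 and 1 reads in parental libraries and scaled counts of 76.9, 59.3 and 64.3 in BrM libraries. The BrM mean was 66.8 ± 9.08 (SD, n = 3), and with 2 parental reads in all the ratio of pooled reads was 107 with a wide exact 95% interval of 29.4 to 894. The hairpin lies inside a longer annotated noncoding RNA on the same strand (AL805899.1, chr4:88909855-88938521), so the reads of Mir31 can come from that longer transcript. AL805899.1 was not matched to a row of the table.

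**Figure D1:**
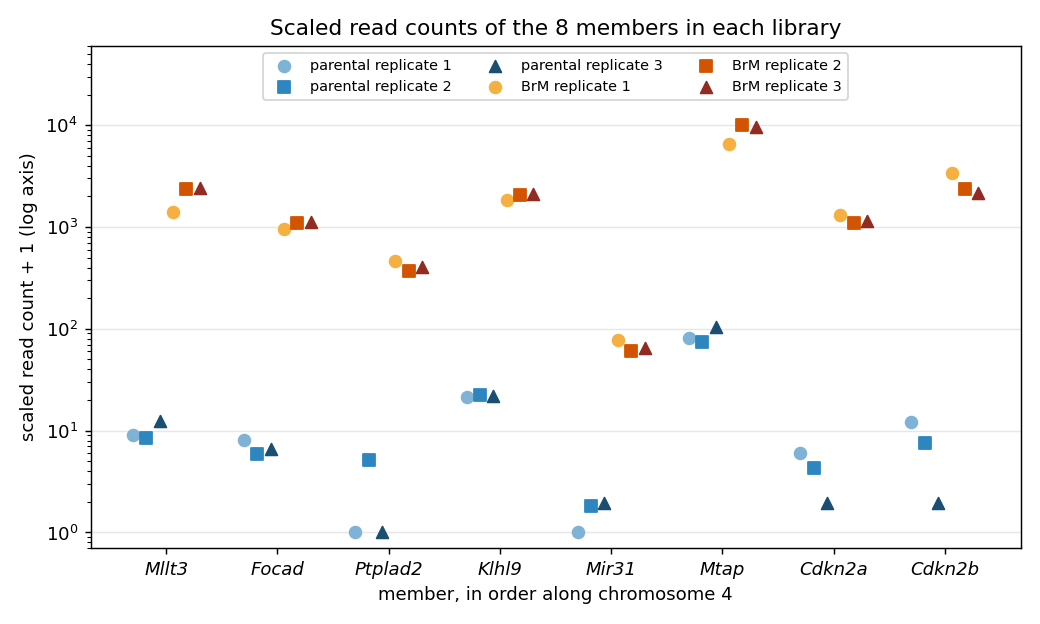
Scaled read count plus 1, on a log axis, of the 8 members in each of the 3 parental and 3 BrM libraries, in order along chromosome 4. Every BrM value lies above every parental value of the same gene, from Mir31 at 59.3 to 76.9 to Mtap at 6534 to 10043 in BrM libraries.

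In all, the members held 129, 148 and 152 reads in the parental libraries and 13113, 20325 and 20426 in the BrM libraries. The groups did not overlap in 8 of 8 members, where 22.3% of the 13821 tested genes had every BrM library above every parental one, and the members were chosen for this difference. All 8 passed the minimum mean of 10 over the 6 libraries, and for all but Klhl9 and Mtap the parental mean alone was under it. The median difference of the 8 on the log2(value + 1) scale was 7.47, and it was 7.58 without BrM replicate 1. Among all 13821 genes, Cdkn2b ranked as 2, Cdkn2a as 4, Ptplad2 as 6, Mllt3 as 8, Focad as 12, Mtap as 19, Klhl9 as 26 and Mir31 as 56 in the size of the rise on that scale. BrM means at least 50 times the parental mean were found for 81 genes, 0.586% of those tested, and 8 of these were the members, while the opposite ratio was found for 2.28% of genes. On chromosome 4 there were 13 such genes, so 5 lay outside the segment.

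Every member had parental reads in the 3 libraries pooled, though Mir31 had only 2 and Ptplad2 only 5. The intervals below leave out library spread, and Cdkn2b had 11, 8 and 1 reads. By these intervals the parental level differed among members. As a percent of the BrM level it was 1.04% for Klhl9 (exact 95% interval 0.807% to 1.32%) and 0.952% for Mtap (0.842% to 1.07%). It was lower for Cdkn2b at 0.239% (0.146% to 0.369%) and Cdkn2a at 0.261% (0.125% to 0.481%), whose intervals lie below those of Klhl9 and Mtap. Mllt3 at 0.419% (0.280% to 0.602%) and Focad at 0.546% (0.328% to 0.855%) lay between in value only. Both intervals overlap those of Cdkn2a and Cdkn2b, and that of Focad also overlaps those of Klhl9 and Mtap. Ptplad2 at 0.377% (0.122% to 0.882%) and Mir31 at 0.930% (0.112% to 3.41%) had too few reads to be placed. In single libraries, Cdkn2b ranged from 0.0358% in parental replicate 3 to 0.424% in parental replicate 1, while Klhl9 stayed between 1.02% and 1.07%. No 1 parental library was the highest for all members: replicate 1 led for Focad, Cdkn2a and Cdkn2b, replicate 2 for Ptplad2 and Klhl9, and replicate 3 for Mllt3 and Mtap. Mir31 had 1 read each in replicates 2 and 3.

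**Figure D2:**
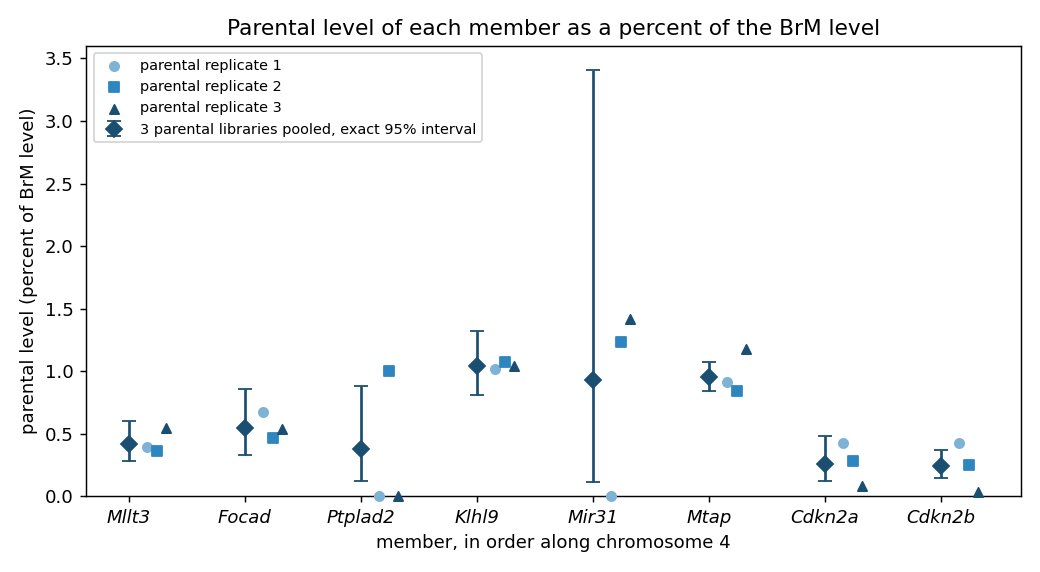
Parental level of each member as a percent of its mean BrM level, pooled over 3 libraries with exact 95% intervals (diamonds) and for each parental library. Klhl9 and Mtap lie near 1%, and Cdkn2a and Cdkn2b at 0.261% and 0.239%, with parental replicate 3 the lowest for both.

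Within the BrM group the members did not move as a block. BrM replicate 1 was the lowest BrM library for 4 members, at 0.580 of the mean of the other 2 for Mllt3, 0.665 for Mtap, 0.858 for Focad and 0.898 for Klhl9. It was the highest for the other 4, at 1.52 for Cdkn2b, 1.24 for Mir31, 1.18 for Ptplad2 and 1.17 for Cdkn2a. Neighbouring genes thus differed in direction, Mtap being lower and Cdkn2a and Cdkn2b higher in that library. Replicates 2 and 3 were within 0.923 to 1.10 of each other for every member. None of the 8 members differed by 2-fold or more between any pair of BrM libraries (0 members), where 26.1% of all tested genes did so between replicates 1 and 2. The members were chosen as expressed in BrM, while the tested genes include some nearly silent there, so these shares are not like for like. With 1 library apart, the differences between BrM libraries have no test.

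**Figure D3:**
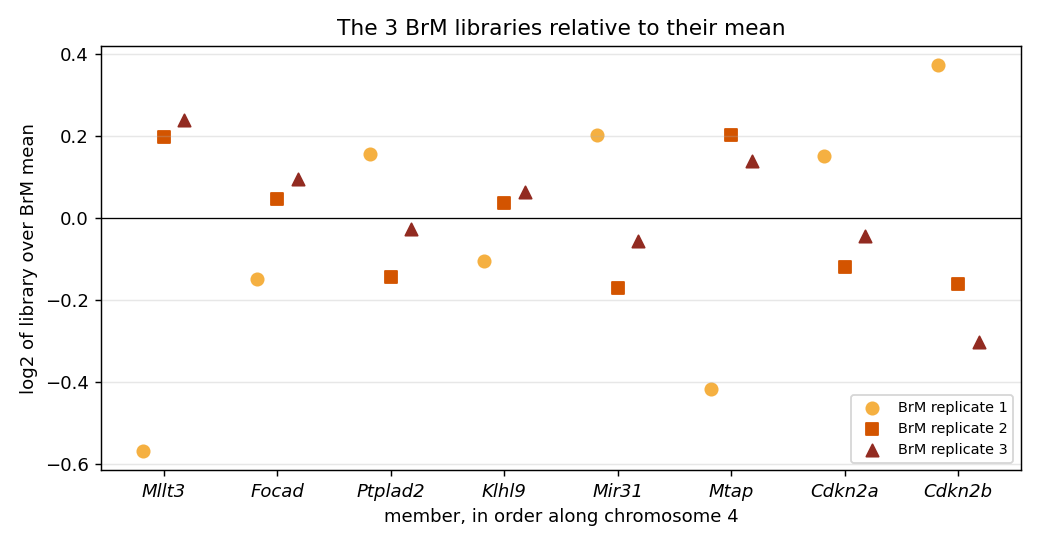
Log2 of the scaled count of each BrM library over the mean of the 3 BrM libraries, for each member. BrM replicate 1 lies below the other BrM libraries for Mllt3, Focad, Klhl9 and Mtap and above them for Ptplad2, Mir31, Cdkn2a and Cdkn2b.

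Levels per kilobase were taken over all annotated exons of a gene, used or not, so they compare genes only roughly. On this measure the BrM level of Mtap was 2706 ± 593 (SD, n = 3), that of Cdkn2b 1898 ± 491 and that of Cdkn2a 1012 ± 99.5. Klhl9 followed at 478 ± 29.5, Mllt3 at 172 ± 48.8, Focad at 93.7 ± 8.20 and Ptplad2 at 60.8 ± 6.42. Mtap and Cdkn2b did not differ beyond their spread, and their order was the reverse in BrM replicate 1, with 2025 for Mtap and 2458 for Cdkn2b. The other neighbours in that order did not overlap between libraries, the closest being Mllt3 and Focad, where the lowest Mllt3 library was at 116 and the highest Focad library at 100.0. Mir31 is left out of this order, since its interval of 106 bases is shorter than most fragments of such libraries.

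Between its outer genes the segment spans 1.54 Mb, chr4:87769925-89311039, with 69 annotated genes of which 39 are protein coding. The table listed 42 of them, and the 34 that are not members had few or no reads. They held 1 parental read and 59 BrM reads in all, 39 of the latter in Gm12603. Of the 34, 27 had 0 reads in every library, and 0 reached a mean of 10 over the 6 libraries. The listed genes named Ifn, which encode type I interferons and are silent in most cells until a virus is sensed, numbered 17. They held 0 parental and 13 BrM reads, and 13 of the 17 had no read in any library. Ifne, the interferon of epithelia, had 5 reads, all in BrM replicate 1, and Ifnz had 2, 1 and 2 in the BrM libraries. Gm12603, a long noncoding RNA also named Wincr1, had 0 reads in parental libraries and 18, 9 and 12 in BrM replicates 1 to 3. These are scaled counts of 22.0, 8.61 and 11.2. The BrM level is at least 14.4-fold higher when the parental group is set to a floor of 3 reads in all.

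The flanking genes were examined next. On the centromeric side, the nearest listed gene was Slc24a2, 539 kb from Mllt3, with 2 reads in each group. The nearest tested gene was Acer2, an alkaline ceramidase 835 kb away, with values of 18.3, 28.8 and 25.5 in parental and 138, 276 and 271 in BrM libraries. It was 8.82-fold higher in BrM (adjusted p = 0.0022, limma). Beyond it Rps6, a ribosomal protein gene 913 kb away, was at 18153 ± 3269 and 25930 ± 2257 (adjusted p = 0.0666, and 0.0326 with upper quartile scaling), and Dennd4c, a Rab exchange factor gene 919 kb away, at 2236 ± 64.1 and 2145 ± 127 (adjusted p = 0.732). Parental levels close to the BrM levels were thus measured within 1 Mb of Mllt3.

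Within 3 Mb on that side, 8 of 12 listed genes were tested: 2 were higher in BrM, 1 was lower and 5 did not pass, where 12.2% of all tested genes were called higher and 15.8% lower. The other gene that rose was Fam154a, a microtubule-associated protein gene, with 0 parental reads and 93 BrM reads, at least 34.3-fold higher when the silent group is set to 3 reads (adjusted p = 0.00142, limma). Cntln, a centrosomal protein gene 2638 kb away, went the other way, with values of 240.2, 460.4 and 310 in parental libraries and 0 reads in every BrM library. By the same floor it was at least 338-fold lower in BrM (adjusted p = 0.000107). Rraga, a Rag GTPase of the mTORC1 pathway, was at 1679 ± 161 and 1973 ± 273 (adjusted p = 0.321), and the lipid droplet protein gene Plin2 at 5497 ± 3470 and 6154 ± 1577 (adjusted p = 0.629). Haus6, an augmin subunit gene, was at 816 ± 134 and 1002 ± 528 (adjusted p = 0.881), and it passed as higher without BrM replicate 1 (adjusted p = 0.0181).

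On the telomeric side the neighbourhood is gene poor, so the end of the pattern was not placed there. Of 7 listed genes within 3 Mb, 0 reached a mean of 10. The nearest, Dmrta1, a transcription factor gene 368 kb from Cdkn2b, held 6, 4 and 7 reads in parental and 3, 0 and 6 in BrM libraries. Elavl2, which encodes a neuronal RNA-binding protein, had 0 parental reads and 2, 13 and 11 in BrM libraries, at least 9.60-fold higher by the same floor. The first tested gene was Tusc1, 4023 kb away and named here after its values were seen, which fell 2.33-fold in BrM (182, 177 and 144 in parental and 67.1, 68.9 and 77.3 in BrM libraries, adjusted p = 0.0132). The median log2 fold change of the 833 other tested genes of chromosome 4 was 0.09, against -0.05 over all tested genes.

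**Figure D4:**
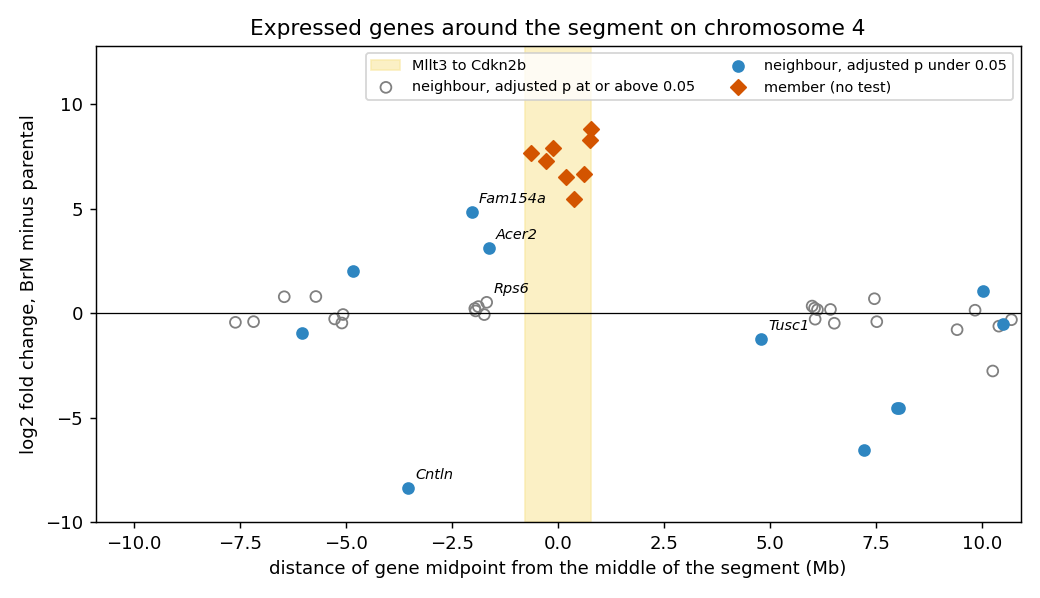
Log2 fold change (BrM minus parental) of tested genes by distance of their midpoint from the middle of the segment in Mb, with the members as diamonds. All 8 members lie above 5, while 5 of the 8 neighbours within 3 Mb on the centromeric side did not pass the test and 0 genes of the telomeric side could be tested within 3 Mb.

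Runs of neighbouring genes that are nearly silent in one line were few. With a limit of a mean under 10 in one group, every library of the other group at 10 or more and at least 8-fold between means, 5 runs of at least 3 neighbouring expressed genes were found, 3 silent in the parental line and 2 in BrM. The segment gave Mllt3, Focad and Ptplad2 as one of them, because the parental means of Klhl9 (20.8) and Mtap (85.2) exceeded the limit. The longest had 4 genes, Hoxa6, Hoxa7, Hoxa9 and Hoxa10, silent in the parental line, and Bbox1, Fibin, Ano3 and Muc15, silent in BrM. With a limit of 5 the run of Mllt3 fell away, and without BrM replicate 1 Cdkn2a and Cdkn2b formed a run with Elavl2. With a limit of 20, and also without parental replicate 1, the longest run had 6 genes, nearly silent in the parental line. These were Hoxc10, Hoxc5, Hoxc9, Hoxc8, Hoxc6 and Hoxc4, while the run of the segment stayed at Mllt3, Focad and Ptplad2. Under a rule added after the data were seen, a ratio of means of at least 50, there were 4 runs, and the segment was the longest with 9 genes, the 8 members and Gm12603. The others had 3 or 4 genes. The members were chosen for this difference. Their lowest ratio of pooled reads was 96.1, so a limit of 50 was bound to join them. Gm12603 had 0 parental reads and meets any such ratio. The length of that run is therefore a description only.

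The remaining results turn to genes that work with the products of the segment, in 9 lists with 133 tested genes. Of all 13821 tested genes 28.1% were called, 12.2% higher and 15.8% lower in BrM. Of the calls, 43.6% were higher, and 55.1% with upper quartile scaling, which moved the median of all genes from -0.05 to 0.08. Without BrM replicate 1, 21.1% of all tested genes were called higher and 26.1% lower. The lists are described by counts and medians only. Centred on the median of each chromosome, 19 list genes in place of 33 were called, and the list medians ran from -0.42 to 0.10. Without an intensity trend Ccng1, Ets1, Mllt10 and Sat1 did not pass (adjusted p = 0.0512 to 0.0576), and with no filter on low values Cbx8 did not (adjusted p = 0.0601).

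The named genes that did not pass with that centring are given here once. They were Mllt10 (adjusted p = 0.406), Hsd17b12 (0.193), Skiv2l (0.098), Cbx8 (0.0876), Ptplad1 (0.0749), Ccng1 (0.0653), Mprip (0.0563), Elovl5 (0.056), Klhl13 (0.051), Sat1 (0.0505), Odc1 and Adi1.

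Around Cdkn2a and Cdkn2b stand the G1 cyclins, their kinases, the other inhibitors of these kinases and the Rb and E2F genes, of which 20 were tested. Of these 1 rose, 6 fell and 13 did not pass, with a median log2 fold change of -0.49. Without BrM replicate 1 these counts were 3, 9 and 8. With all libraries, those that fell were the inhibitors Cdkn2c, Cdkn2d and Cdkn1b together with Rb1, Rbl2 and E2f1. No cyclin and no cyclin-dependent kinase gene of the list passed as lower with all libraries. The gene that rose was Ccnd2, which encodes the kinase activator cyclin D2, from 907 ± 173 to 15393 ± 3790 (SD, n = 3 each), 16.8-fold (adjusted p = 0.000183). The kinases that p15Ink4b and p16Ink4a bind did not pass: Cdk4 was at 11726 ± 738 and 12953 ± 2309 (adjusted p = 0.601), and Cdk6 at 1131 ± 414 and 1263 ± 707 (adjusted p = 0.971). The other 2 Ink4 genes, Cdkn2c (p18Ink4c, also on chromosome 4) and Cdkn2d (p19Ink4d, on chromosome 9), both fell, by 4.66-fold (adjusted p = 0.00412) and 2.02-fold (adjusted p = 0.00754). Cdkn2c went from 1528 ± 214 to 343 ± 126 and Cdkn2d from 1602 ± 306 to 784 ± 34.0. So the 4 Ink4 genes split, with Cdkn2a and Cdkn2b higher in BrM and Cdkn2c and Cdkn2d lower. The count of Cdkn2a does not separate the Ink4a from the Arf transcript. Cdkn1b, the kinase inhibitor p27, fell 2.54-fold (adjusted p = 0.000676), and E2f1 fell 1.90-fold (adjusted p = 0.00434). Rb1, the retinoblastoma gene, fell 3.00-fold, from 1616 ± 109 to 574 ± 268 (adjusted p = 0.0122), and did not pass without parental replicate 1 or 2 (adjusted p = 0.0507 and 0.0516).

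Among 23 tested genes of p53, its regulators and its targets, the pathway of Arf, 2 rose, 3 fell and 18 did not pass, with a median of -0.13. Without BrM replicate 1 the counts were 2, 8 and 13. Trp53 itself was at 6067 ± 264 and 6131 ± 1379 (adjusted p = 0.971), and Mdm2, the ubiquitin ligase that Arf binds, at 7831 ± 1368 and 9943 ± 4281 (adjusted p = 0.531). Npm1, the nucleolar partner of Arf, rose 2.09-fold, from 28420 ± 1499 to 60067 ± 10978 (adjusted p = 0.00674). Pmaip1, the p53 target Noxa, was the strongest of those that fell, with 1952 parental reads and 1 BrM read, a ratio of 1762 (exact 95% interval 316 to 69621; adjusted p = 0.000115). Eda2r, another p53 target, fell 193-fold (adjusted p = 0.00409), and 467-fold without BrM replicate 1, the library with most of its BrM reads, and 95.02-fold without BrM replicate 2. Ccng1, the p53 target cyclin G1, rose 1.54-fold (adjusted p = 0.0308), which was lost when any single library but BrM replicate 1 was left out (adjusted p = 0.0502 to 0.0988). Cdkn1a, the p53 target p21, was at 11726, 9459 and 8748 in parental and 17147, 4514 and 4583 in BrM libraries (adjusted p = 0.526). BrM replicate 1 was the highest of the 6 and the other BrM libraries were the lowest, and without that library Cdkn1a passed as lower (2.18-fold, adjusted p = 0.0018).

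Mtap works in methionine salvage, with polyamine synthesis before it and the Prmt5 methylosome, which its substrate inhibits, beside it. Of 17 tested genes 4 rose, 2 fell and 11 did not pass, with a median of -0.01. The counts became 5, 3 and 9, and the median 0.15, without BrM replicate 1. Odc1, the rate-limiting enzyme of polyamine synthesis, rose 3.41-fold (11127 ± 3293 to 37192 ± 5092, adjusted p = 0.00261). Adi1, a later enzyme of methionine salvage, rose 2.08-fold (1302 ± 45.1 to 2706 ± 149, adjusted p = 0.00162). Odc1 and Adi1 both lie on chromosome 12, whose median log2 fold change was 0.99, and relative to that median neither passed (adjusted p = 0.06 for Odc1 and 0.792 for Adi1). Prmt5, the arginine methyltransferase, was at 3484 ± 389 and 3544 ± 995 (adjusted p = 0.973). The polyamine oxidase gene Paox rose 1.48-fold (adjusted p = 0.0257) and Sat1, which acetylates polyamines for export, fell 2.27-fold (adjusted p = 0.0387). Dropping any 1 of parental replicates 2 and 3 and BrM replicates 2 and 3 ended the call of Paox (adjusted p = 0.0748 to 0.104). Dropping parental replicate 2, BrM replicate 2 or BrM replicate 3 ended that of Sat1 (adjusted p = 0.0789 to 0.112), as did upper quartile scaling.

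Of 15 tested genes of the super elongation and Dot1l complexes, in which Mllt3 acts, 0 rose, 3 fell and 12 did not pass (median -0.13; 1, 4 and 10 without BrM replicate 1). Those that fell were Aff1 (1.87-fold, adjusted p = 0.00558), Aff3 (7.48-fold, 0.0132) and Mllt10 (1.56-fold, 0.0352), of which Aff1 and Aff3 are scaffolds and Mllt10 a Dot1l cofactor. Aff3 no longer passed after dropping parental replicate 1 or BrM replicate 2 (adjusted p = 0.0541 and 0.0514). Mllt10 no longer passed after dropping any single library but BrM replicate 1 (adjusted p = 0.0648 to 0.116) or with upper quartile scaling. Of 10 tested genes of very long chain fatty acid elongation, the pathway of Ptplad2, 0 rose, 4 fell and 6 did not pass (median -0.60; 0, 6 and 4 without BrM replicate 1), and after centring on chromosomes only Ptpla was called. They included the relatives of Ptplad2: Ptpla, also called Hacd1, fell 3.57-fold (adjusted p = 0.00176) and Ptplad1, also called Hacd3, fell 1.59-fold (adjusted p = 0.00908). The elongase gene Elovl5 (1.76-fold, adjusted p = 0.0201) and the ketoreductase gene Hsd17b12 (1.82-fold, adjusted p = 0.0257) fell as well. The call of Elovl5 ended after dropping parental replicate 1 or 2 (adjusted p = 0.0642 and 0.0804), and that of Hsd17b12 after dropping parental replicate 1, parental replicate 3 or BrM replicate 3 (adjusted p = 0.0561 to 0.0889).

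Of 5 tested partners of Klhl9 in the Cul3 ligase, counting its target Aurkb, 1 rose and 4 did not pass (median 0.05). Without BrM replicate 1, 2 rose. The gene that rose with all libraries was Klhl13, which acts with Klhl9 in mitosis, from 8.19 ± 1.49 to 38.6 ± 26.9 (3.78-fold, adjusted p = 0.0383), and the call ended after dropping any single library but BrM replicate 1 (adjusted p = 0.0565 to 0.112). A list of the SKI complex, which Focad serves, and the RNA exosome also held Hbs1l and Pelo. Of its 15 tested genes, 0 rose, 1 fell and 14 did not pass (median -0.14). Without BrM replicate 1 the counts were 3, 2 and 10 (median 0.04). The gene that fell with all libraries was Skiv2l, the helicase of the SKI complex (1.58-fold, adjusted p = 0.0193). It no longer passed after dropping parental replicate 1 or 3, or else BrM replicate 2 or 3 (adjusted p = 0.0566 to 0.0789).

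Of 18 tested regulators of the Ink4b, Arf and Ink4a promoters, 2 rose, 2 fell and 14 did not pass (median 0.14; 3, 5 and 10 without BrM replicate 1). Tbx3, a T-box repressor of Arf, had values of 478, 445 and 501 in parental libraries and 0 reads in every BrM library, at least 464-fold lower when BrM is set to 3 reads in all (adjusted p = 6.1e-05). Id1, an inhibitor of helix-loop-helix factors that can repress Ink4a, fell 4.51-fold, from 7063 ± 1319 to 1555 ± 183 (adjusted p = 0.000565). Ets1, an activator of Ink4a, rose 2.38-fold (adjusted p = 0.039) and Cbx8, a Polycomb subunit that binds the locus, rose 1.59-fold (adjusted p = 0.0453). The call of Ets1 ended after dropping parental replicate 3, BrM replicate 2 or BrM replicate 3 (adjusted p = 0.0718 to 0.113), and that of Cbx8 after dropping any single library but BrM replicate 1 (adjusted p = 0.0981 to 0.178).

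For miR-31, 11 of 12 reported targets were tested, of which 2 rose, 0 fell and 9 did not pass (median -0.11). Without BrM replicate 1, 3 rose, 3 fell and 5 did not pass. Fzd3, a Wnt receptor, rose 15.4-fold, from 22.8 ± 8.02 to 389 ± 178 (adjusted p = 0.00219). Mprip, a myosin phosphatase partner, rose 1.63-fold (adjusted p = 0.0259), a call that ended after dropping parental replicate 1 or 2, or else BrM replicate 2 or 3 (adjusted p = 0.0579 to 0.0878). The site that pairs with the miR-31-5p seed printed above, TCTTGCC, was found in the annotated 3′ UTR of 7 of the 12, Fzd3 among them and Mprip not. It was found in 15.4% of the 13032 tested genes with a 3′ UTR. The 2009 genes with a site had a median log2 fold change of -0.15, and 19.5% of them were called lower and 10.3% higher. The 11023 genes without one had a median of -0.05, with 15.9% lower and 12.5% higher. Their 3′ UTRs were shorter, with a median of 1179 bases against 2497. Among UTRs of 500 to 1500 bases the medians were -0.14 with and -0.04 without a site, and 17.6% and 15.3% were lower. Among UTRs of 1500 to 4000 bases the medians were -0.15 with and -0.10 without a site, and 19.6% and 18.3% were lower. These shares are given without a test, and mature miR-31 was not measured.

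**Figure D5:**
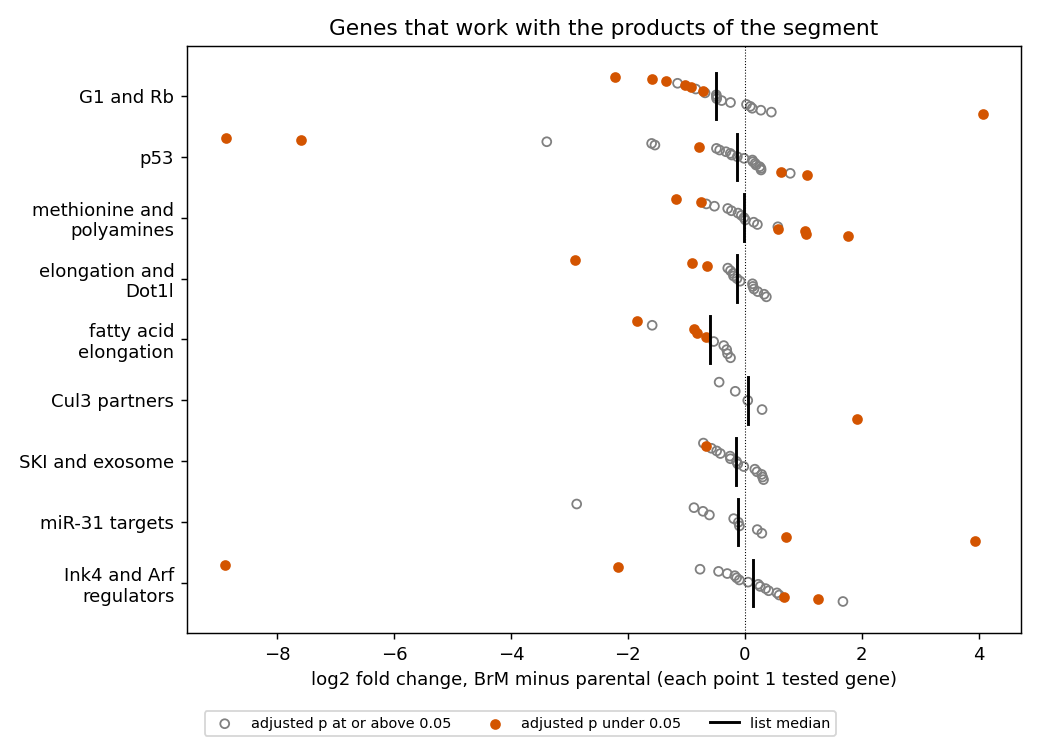
Log2 fold change (BrM minus parental) of every tested gene in 9 lists of genes that work with the products of the segment, filled where the adjusted p was under 0.05, with list medians as bars. Medians run from -0.60 for fatty acid elongation to 0.14 for the regulators of the Ink4 and Arf promoters, while single genes such as Ccnd2, Fzd3, Pmaip1 and Tbx3 lie far out.

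Genes elsewhere with the same profile over the 6 libraries were ranked by Pearson's r with the mean of the members, on the log2(value + 1) scale, among the 53 genes whose mean reached 100 and whose log2 rise reached 5. Nptx1, a neuronal pentraxin gene on chromosome 11, was first (r = 0.998), with parental values of 7.12, 10.7 and 5.67 and BrM values of 1053, 763 and 792. Fbxo2, a ubiquitin ligase subunit gene, and Hgfac, the gene of the activator of hepatocyte growth factor, followed with r = 0.998 each, and Dmrta2 and Parvb with r = 0.997 each. Fbxo2 and Dmrta2 also lie on chromosome 4, outside the segment. The candidates were chosen for the same group difference, which alone gives a high r, so the order is a description of 6 libraries.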

How the data were processed

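Cultured MMTV-ErbB2 mouse cells were profiled by polyadenylated RNA sequencing in 3 parental and 3 BrM libraries; the 5 human HCC1954 libraries were not analysed here. The values that the authors deposited are a signal, normalised read counts per gene and library. STAR, HTSeq, GRCh38 and GRCm38 are named per the submitters' processing notes; versions, strand setting and the scaling tool are not given in the sources used here. Within 0.01 read, 100% of the values were whole multiples of the value of 1 read in their library, so reads were recovered by division. All columns were mapped to a sample or, for the columns numbered 3, which match no numbered title, to a group only (replicate 3 in the text).

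Of 24062 listed symbols, 98.3% matched GENCODE M21, 22724 by symbol and 933 by an older symbol. The table listed 27 symbols turned into dates, which are named nowhere. Genes with a mean of at least 10 were tested with limma 3.58.1 (R 4.3.3) on log2(value + 1), with an intensity trend, the group alone, two-sided, Benjamini-Hochberg adjustment over all 13821 genes and a threshold of 0.05. A fold change is the difference between the 2 group means on this scale, which understates the change of low genes. Ratios of pooled reads have exact 95% intervals. The test was checked on simulated data.

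The members, lists and named genes were chosen with earlier results of these data known. Besides the members, the text names the expressed genes within 3 Mb, up to 4 called genes of each list with the smallest p-values, the partners Cdk4, Cdk6, Rb1, Trp53, Mdm2, Cdkn1a, Cdkn2c, Cdkn2d and Prmt5, and the 5 genes most like the members; other names were chosen after their values were seen. Alternatives were other pseudocounts, filters and scalings, no trend, edgeR 4.0.16 and DESeq2 1.42.0 on recovered reads, a replicate block, chromosome centring, leaving out each library, and other windows and limits.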

Additional observations from a re-analysis of the deposited data

How the results depend on the processing

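The median difference of the members, 7.47 on the log2(value + 1) scale, was 6.60 with a pseudocount of 5 and 7.37 to 7.58 when 1 library was left out. Of all tested genes 3881 were called, 3753 with edgeR and 5075 with DESeq2, and 2191 to 6519 when 1 library was left out, the highest number without BrM replicate 1. Dropping parental replicate 1 or 2, or else BrM replicate 2 or 3, lowered the number by over 1.5 times. In the pathway lists, 33 genes were called, 19 after centring on each chromosome's median and 19 to 61 when 1 library was left out, 61 without BrM replicate 1. Runs of silent neighbours numbered 5, but 40 with a shortest run of 2 genes, 2 with a shortest run of 4 and 4 to 8 when 1 library was left out, 8 without BrM replicate 1. Called genes beside the segment numbered 3 within 3 Mb, 1 within 1 Mb and 5 within 5 Mb. The libraries numbered 1 and 2 share only a number (correlation of their deviations 0.304 and -0.088), and a replicate block over these 4 libraries called 2029 genes, 18 of them in the lists. Depth limits the parental values, with 2 reads of Mir31, 5 of Ptplad2 and 10 of Cdkn2a in all.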
